A study of Drosophila melanogaster with 12 samples.

Results

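Nerfin-1, a nuclear protein with zinc fingers, is made in young neurons and is known for keeping them from reverting to a progenitor state, and Scalloped (Sd) is the TEAD-family DNA-binding protein of Drosophila. The regions described here are stretches of the genome where Nerfin-1 was called bound, Sd was not, and the chromatin of sorted nerfin-1 neurons was not called open. They were taken as the distinct intervals of the Nerfin-1 DamID peak list that share no base with any interval of the Sd DamID list or of the list of accessible regions from ATAC-seq. This gave 407 of 3649 distinct Nerfin-1 peaks (11.2%), or 44.9% of the 906 Nerfin-1 peaks without Sd. The other Nerfin-1 peaks were 499 without Sd but in open chromatin, 518 that overlapped Sd outside open chromatin and 2225 that overlapped Sd in open chromatin.

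In DamID, a bacterial adenine methylase (Dam) is fused to a protein and marks GATC sites that the protein comes near, so a peak records proximity accumulated over the hours of expression and not only direct binding. ATAC-seq uses a transposase that inserts into nucleosome-poor DNA, and active promoters and enhancers usually lie in such DNA.

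The study used the central nervous system of wandering third-instar larvae. DamID animals carried tubGal80TS, GMR31H08-Gal4 with UAS-GFP and, at attP2, a pUAST-LT3 transgene for Dam alone, Dam-Sd or Dam-Nerfin-1, with 2 samples of each. Eggs were laid at 25°C, animals were kept at 18°C for 4 days, and the transgenes were allowed to act at 29°C for 24 hours before dissection. ATAC-seq and RNA-seq, with 3 samples each, used GFP-positive CNS cells, sorted from animals with the nerfin-1.GFP-NLS reporter insertion iA that were reared at 25°C, and the RNA of several sorting days was pooled into the 3 RNA samples. Binding was thus read in cells chosen by a Gal4 driver, and openness and RNA in cells chosen by a reporter at another temperature, so "outside open chromatin" refers to the sorted cells. The labels do not say which cells GMR31H08-Gal4 marks. All 6 neuron markers (elav, fne, nSyb, brp, Syt1 and nerfin-1) were in the RNA table of the sorted cells, at a summed 8090 to 9050 CPM (counts scaled to 1000000 listed counts) per library. Of this sum, nerfin-1, the gene of the sorting reporter, gave a mean of 2070 CPM. In the table were also 1 of 5 neuroblast markers (ase, 31.6 to 58.2 CPM), 1 of 6 glial markers (gcm, 22.1 to 41.9 CPM), 1 of 5 hemocyte markers (Pxn, 112 to 143 CPM), 0 of 5 muscle and 0 of 5 testis markers. These sets are small. Of the longer gene lists used below, the table held 6 of 14 neuroblast and progenitor factors, among them brat. It also held 3 of 15 glial, 3 of 13 hemocyte, 1 of 22 muscle and 0 of 15 testis genes.

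Each peak list was 1 list per group, with no height, score or replicate value, so no peak carries an error here. The genome sequence was not used here, and positions below are on dm6, counted from 1.

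The 407 peaks were described by length and spacing. Their lengths ran from 146 to 4553 bp with a median of 907 bp (quartiles 702.5 and 1141 bp), and 20 were longer than 2 kb. Length bears on the chance of overlapping another list and so is described without a test. The median was 1148 bp for Nerfin-1-only peaks in open chromatin, 759.5 bp for shared Nerfin-1 peaks outside it and 681 bp for Sd-only peaks outside it. Successive members on a chromosome lay a median of 207669 bp apart, and no pair lay closer than 4347 bp. In the other Nerfin-1-only class the closest pair was 172 bp apart, and among shared Nerfin-1 peaks outside open chromatin it was 124 bp apart. The median spacing was 161806 bp in the former class and 143754.5 bp in the latter. Sd-only peaks outside open chromatin had a median spacing of 142864 bp. Each of these classes held more peaks than the members, and spacing was not adjusted for their number.

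By the rule no member touched an ATAC or Sd peak. The ATAC list held 35494 peaks and the Sd list 4064 distinct peaks. The gaps of other positions in the genome were not computed, so closeness to open chromatin is not read as a trait of members. The nearest ATAC peak was a median of 1203.5 bp away (quartiles 575.8 and 2031.5 bp), and 396 of the 406 members on chromosomes with ATAC peaks had one within 5000 bp. The nearest Sd peak was farther, at a median of 6318 bp, with 20 members within 500 bp of one. The nearest Nerfin-1 peak of another class lay at a median of 12518 bp. For comparison, shared Nerfin-1 peaks outside open chromatin had a median gap to the nearest ATAC peak of 763.5 bp and Sd-only peaks outside it one of 714 bp. Both were shorter than that of members.

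**Figure D1:**
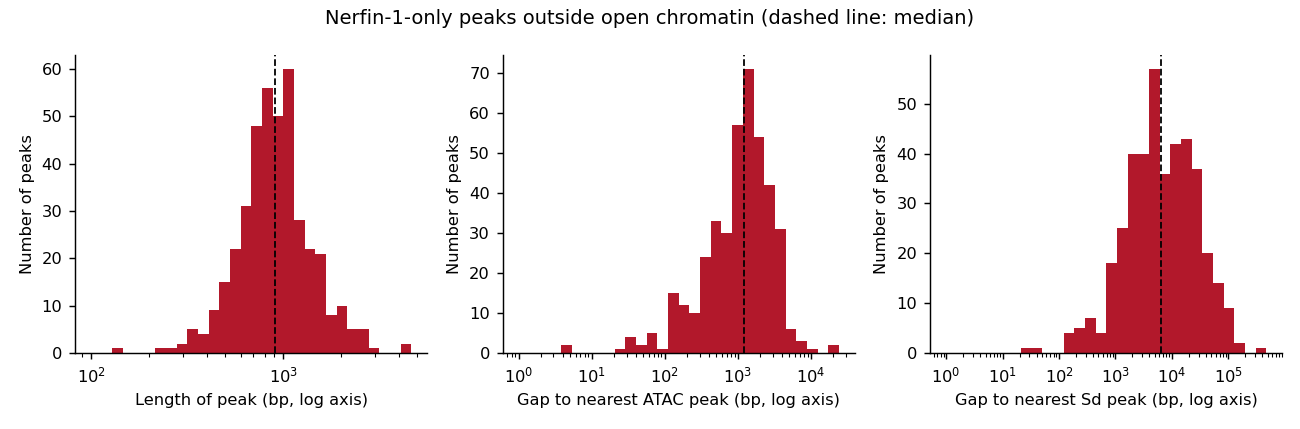
Histograms of the 407 Nerfin-1-only peaks outside open chromatin by length, and of the 406 with a gap to the nearest ATAC peak and the 406 with one to the nearest Sd peak, on log axes in bp, with the number of peaks on the vertical axis and the median as a dashed line. The medians are 907 bp, 1203.5 bp and 6318 bp.

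At the edge of the rule, the member in tex (3R, 8307762 to 8308110) was 24 bp from a Sd peak, and a Nerfin-1 peak nearest to CG8668 (2L, 8130434 to 8131165) was left out for 3 bp shared with one. The member nearest to Cdlc2 (2L, 1344804 to 1345812) was 4 bp from an ATAC peak, and a peak nearest to CG13229 (2R, 11155480 to 11156614) was left out for 2 bp.

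Members lay on every large chromosome arm. There were 89 on 2L, 69 on 2R, 85 on 3L, 98 on 3R, 62 on X and 2 on chromosome 4. Members made up 12.8% of the Nerfin-1 peaks of 2L, 9.72% of those of 2R, 11.5% on 3L, 11.1% on 3R, 10.6% on X and 5.26% on chromosome 4. The X held 15.2% of members (95% Wilson interval 12.1 to 19.0), against 16.0% of all Nerfin-1 peaks. Compared with the X share of Nerfin-1-only peaks in open chromatin (13.4%), shared Nerfin-1 peaks outside it (14.9%) and Sd-only peaks outside it (16.4%), the differences were 1.81, 0.369 and -1.16 percentage points. None passed (Fisher's exact test, two-sided, adjusted p = 0.67, 0.93 and 0.78), with 95% intervals of -2.75 to 6.49, -4.22 to 5.10 and -5.91 to 3.71 points. The longest member, of 4553 bp, lay on the mitochondrial genome (6563 to 11115), where the ATAC list has no peak, and 1 member of 688 bp lay on the Y chromosome.

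Most members lay in genes. A protein-coding gene was overlapped by 303 of 407 members (74.4%, 95% Wilson interval 70.0 to 78.4), and 238 (58.5%, 53.6 to 63.2) lay wholly inside one. The share wholly inside was 43.3% (39.0 to 47.7) for Nerfin-1-only peaks in open chromatin, 61.0% for shared Nerfin-1 peaks outside it and 61.1% for Sd-only peaks outside it. These shares were not tested. The annotation used here gives gene ends without strand, so gene starts and exons were not placed. Of the 104 members outside protein-coding genes, 11 overlapped a long non-coding RNA gene, among them bxd, a non-coding gene of the bithorax complex. In total 18 members (4.42%) overlapped a long non-coding RNA gene, against 6.01% to 10.1% in the other Nerfin-1 classes.

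The longest members on the chromosome arms included intergenic stretches and gene interiors. The first, of 4237 bp (2L, 9975589 to 9979825), lay 4819 bp from bib, a neurogenic gene for a membrane channel protein. It was followed by 2798 bp inside Pgant2, a sugar transferase for mucin-type glycosylation, where it also reached into CG8840. A member of 2773 bp (3L, 12622398 to 12625170) lay 599 bp from caup, a homeodomain factor of the Iroquois complex. One of 2768 bp lay 8737 bp from foxo, the transcription factor of insulin signalling. One of 2494 bp lay inside Fas3, an adhesion molecule, only 192 bp from a Sd peak and 177 bp from an ATAC peak. The remaining ones lay in CG14764, CG34430 and CG34431, in thw, in uex, near Gfat1, at yellow-g2 and at CG4066.

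A gene was counted as holding a member when a member touched its span or the 1 kb beyond each end. There were 483 such genes, 3.47% of 13922 protein-coding genes, around 329 members, and 78 members lay at no gene. Of the 329, 121 lay at 2 or more genes, so a member named with a gene can lie at another too. Longer genes held members more often: 7.04% of genes of 5000 bp or more had one, against 2.07% to 2.47% in the shorter bands of span. Only 6 genes held 2 members, and none held more.

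Vsx1, a homeodomain factor of optic lobe progenitors and medulla neurons, was among those 6 (X, 5594255 to 5612865). Its members ran from 5598884 to 5600053 and from 5611417 to 5611937. The 4 ATAC peaks between them were covered by no Sd or Nerfin-1 peak. At fs(1)h, the BET bromodomain gene, the members lay 9773 bp apart with 3 ATAC peaks and no Sd or Nerfin-1 peak between. CG32264 had 6 ATAC peaks between its members and loaf had 2, in both cases without a DamID peak between them. Lmpt, a LIM-domain gene, had 5 ATAC peaks, 1 Sd and 1 Nerfin-1 peak between its members. In thw the members of 2585 and 670 bp stood 5342 bp apart with no ATAC peak between them. At 5 of the 6 genes no Sd peak fell between the members. How often stretches of such length hold no Sd peak elsewhere was not counted, so nothing is read from this.

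**Figure D2:**
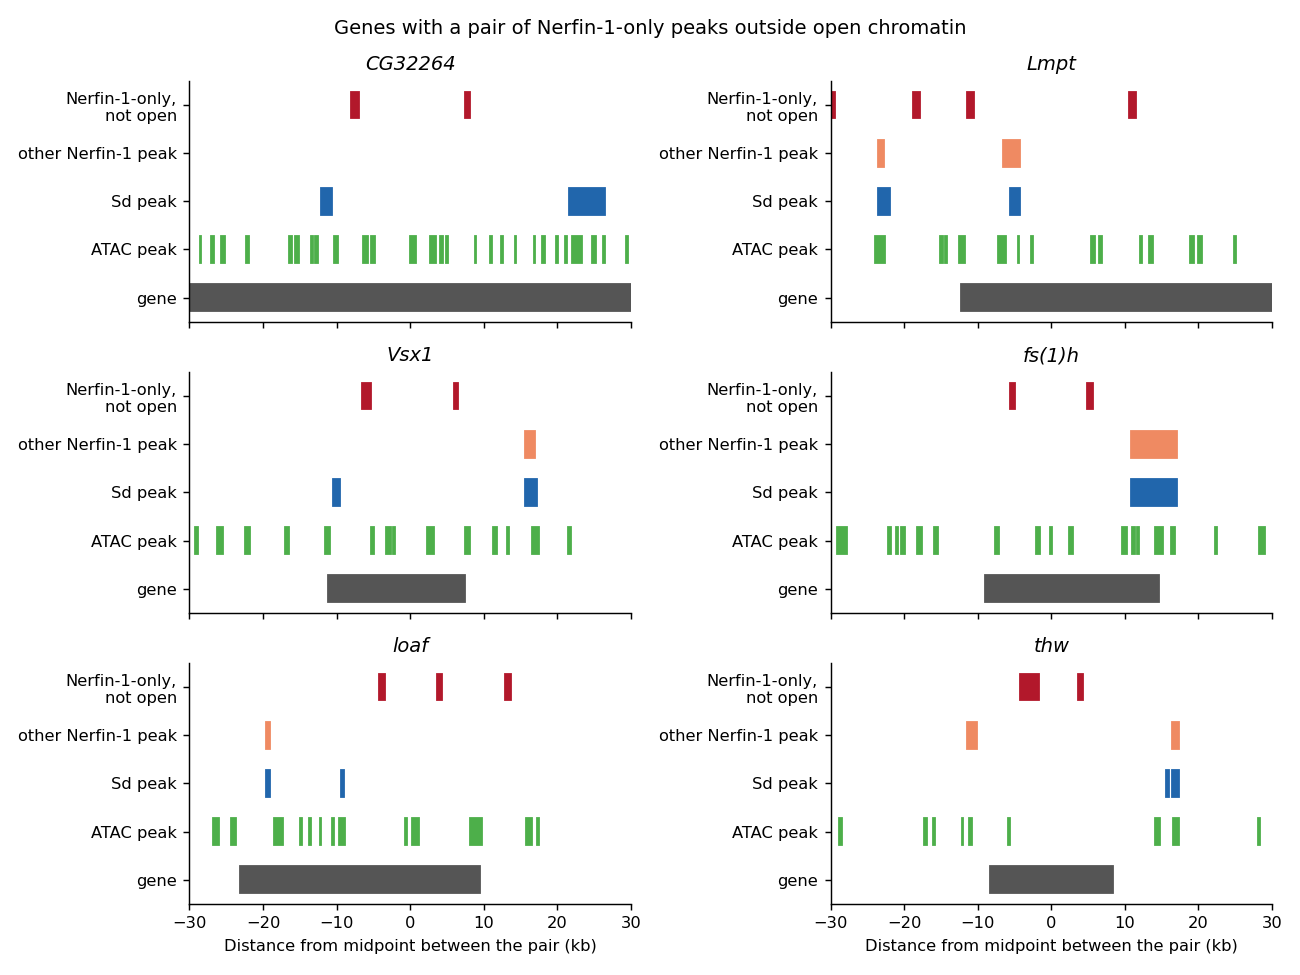
Maps of the 6 genes with a pair of members, in kb from the midpoint between the peaks, with rows for the named gene, ATAC peaks, Sd peaks, other Nerfin-1 peaks and Nerfin-1-only peaks outside open chromatin. Bars are drawn to scale and cut at the edge of the window; at Vsx1, 4 ATAC peaks lie between the members.

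The RNA of the sorted cells was then set beside the peaks. It was not used to choose them, but the ATAC-seq that was came from cells sorted by the same reporter. The authors' deposited RNA table holds raw counts of 5135 genes, and how these were selected is not stated, so a gene outside the table is called not listed and not silent. Members lay at a listed gene less often than each of 3 other classes of peak did. Of the 407 members, 151 (37.1%, 95% Wilson interval 32.5 to 41.9) were at a listed gene, against 61.7% of all Nerfin-1 peaks. The share was 57.9% (53.5 to 62.2) for Nerfin-1-only peaks in open chromatin, 49.8% (45.5 to 54.1) for shared Nerfin-1 peaks outside it and 46.5% (42.1 to 51.0) for Sd-only peaks outside it.

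The difference, members minus Nerfin-1-only peaks in open chromatin, was -20.8 percentage points (95% Newcombe interval -27.0 to -14.3, Fisher's exact test, two-sided, adjusted p = 2.78e-09). Against shared Nerfin-1 peaks outside open chromatin it was -12.7 points (-19.0 to -6.27, Fisher's exact test, adjusted p = 4.23e-04), and against Sd-only peaks outside it -9.42 points (-15.8 to -2.92, Fisher's exact test, adjusted p = 0.011). P-values were adjusted over the 6 tests of peak classes. They cover counting only: the lists hold no replicates, and peaks that lie at the same gene are not independent. The first comparison has a further limit. Open chromatin of the sorted cells separates its classes, and the RNA was read in cells sorted the same way. Its test is therefore not independent of the rule.

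The last 2 differences did not hold under one alternative. With both Sd and ATAC peaks widened by 500 bp the members numbered 306, of which 38.2% were at a listed gene. For the Sd-only class of this setting, Nerfin-1 and ATAC peaks were widened. Shared Nerfin-1 peaks then stood at 46.4% and Sd-only peaks at 42.2%, and the differences no longer passed (Fisher's exact test, adjusted p = 0.11 and 0.53). Within 500 bp of an ATAC peak, 32.6% of 89 members (23.7 to 42.9) were at a listed gene, against 55.2% of 194 shared Nerfin-1 peaks (48.1 to 62.0) and 52.3% of 193 Sd-only peaks (45.3 to 59.3). From 501 to 1000 bp the shares were 48.2%, 49.6% and 42.4%, from 1001 to 2000 bp 35.4%, 43.1% and 44.0%, and beyond 2000 bp 34.6%, 47.3% and 41.4%. The intervals of members and of the other classes stood apart only in the nearest band, and the shares followed no steady order with distance. These bands were chosen after the values were seen, and the part of distance, or of the different choice of cells for DamID and for RNA, in the result was not tested.

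**Figure D3:**
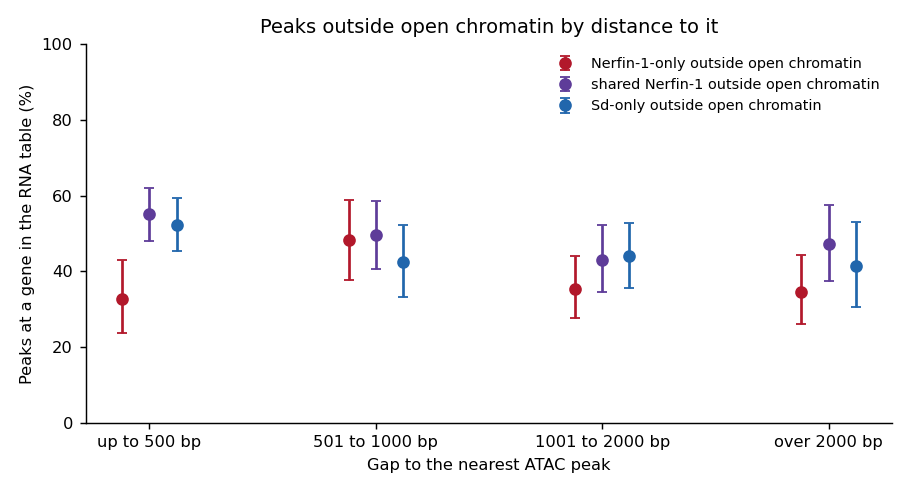
Percent of peaks at a gene in the RNA table by gap to the nearest ATAC peak, for the 3 classes outside open chromatin, with 95% Wilson intervals as error bars. Members stand at 32.6% in the nearest band, where the other classes stand at 55.2% and 52.3%.

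Counted by gene, 167 of the 483 genes with a member were listed (34.6%, 30.5 to 38.9), close to the 35.5% of all protein-coding genes, so this share is no result about the members. It was made of unlike groups. Of the 208 genes that also had another DamID peak, 115 (55.3%, 48.5 to 61.9) were listed. Of the 275 genes whose only DamID peaks were members, 52 (18.9%, 14.7 to 24.0) were listed. Genes without any DamID peak stood at 23% (22.1 to 23.9), genes with only Nerfin-1-only peaks in open chromatin at 45.4% (40.6 to 50.3), and genes with only Sd-only peaks outside open chromatin at 39.1% (33.5 to 45). Gene span also differed, but the groups were not in the same order by span as by listed share. The median span was 2734 bp for genes with members alone and 11045 bp for those with other peaks too. For genes without a DamID peak it was 1743 bp. It was 2488 bp for genes with only Nerfin-1-only peaks in open chromatin and 2523 bp for those with only Sd-only peaks outside it. The part of span in these shares was not tested. Among genes of 5000 bp or more, 23.1% of 104 genes with members alone were listed, 59.6% of 141 with other peaks too and 31% of 1302 without a DamID peak. Among genes of up to 1178 bp the shares were 8.82% of 68 genes, 33.3% of 12 and 12% of 2632. The groups of genes are given as a description, without a test. By the authors' deposited table, which pairs each peak with genes in its own way, 100 of 415 identifiers paired with a member were in the RNA table (24.1%), against 48.8% of identifiers paired with any Nerfin-1 peak.

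**Figure D4:**
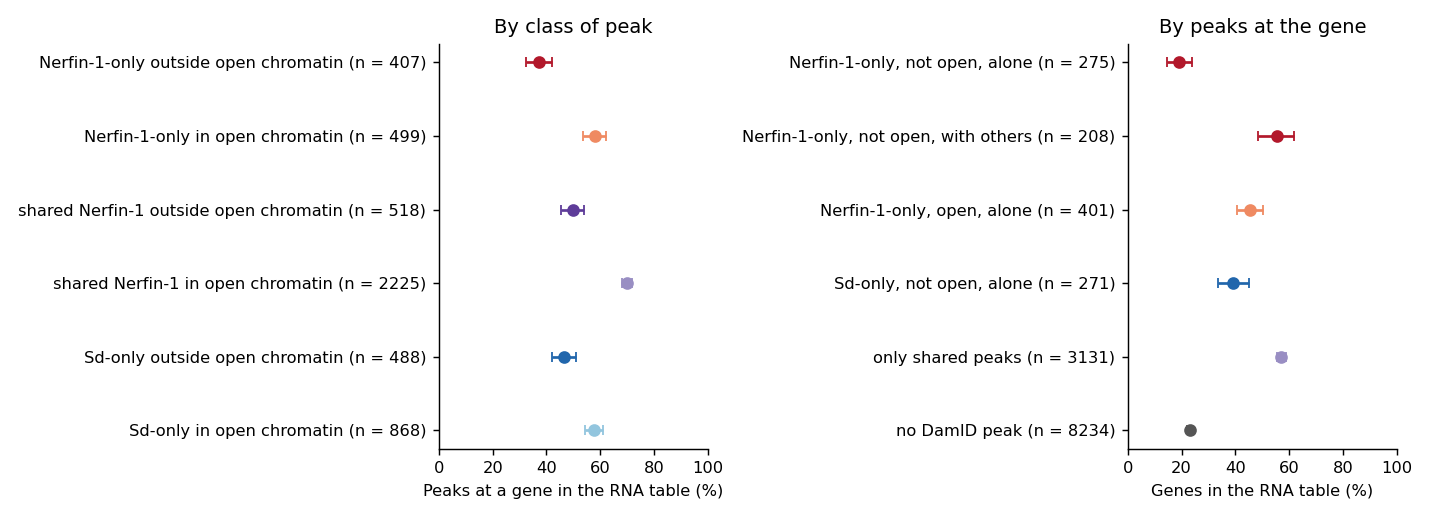
Percent of peaks at a gene in the RNA table by class of peak (left), and percent of genes in the RNA table by the peaks they hold (right), with 95% Wilson intervals as error bars and numbers in the labels. Members stand at 37.1% on the left, and genes with members alone at 18.9% on the right.

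Named genes show what these groups contain. RNA levels are CPM in libraries S1, S2 and S3. They carry no correction for gene length, so levels of different genes are not compared. The 3 libraries held 43555895 to 57468071 listed counts, and p-values were not computed for a single RNA group.

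Among genes that had a member and other peaks, brat encodes a translational repressor that limits neuroblast self-renewal. Its RNA stood at 4550, 4420 and 3820 CPM, or 4260 ± 392 (SD, n = 3). Its member overlapped AsnRS and DCTN6-p27, 974 bp outside brat and 291 bp from a Sd peak, and the gene also had 3 shared peaks in open chromatin. The chromatin remodeller kis, at 3090, 3260 and 2760 CPM, had 1 member inside the gene and 2 shared Nerfin-1 peaks in open chromatin. The guidance ligand sli, at 886, 912 and 822 CPM, held a member 10978 bp from the nearest Sd peak and 2 shared Nerfin-1 peaks elsewhere. At fs(1)h the 3 libraries gave 1010, 1030 and 920 CPM. Each of these genes thus also had peaks shared with Sd. The other highest genes of this kind were nocte, mask, Ten-a, eEF1gamma, CenG1A and mamo, with means from 819 ± 130 to 1480 ± 49.6 CPM (SD, n = 3).

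Genes whose only DamID peaks were members and that were listed included Dg, the cell-surface matrix receptor dystroglycan. Dg stood at 1070, 1160 and 1140 CPM (1120 ± 43.6, SD, n = 3), with 1 member wholly inside the gene (2R, 16092974 to 16093736) 1358 bp from the nearest ATAC peak. The ribosomal protein gene RpL27 stood at 641, 705 and 770 CPM. Its member of 1439 bp reached across an end of the gene, 973 bp from an ATAC peak, and also overlapped Idh3g. Dscam4, an immunoglobulin adhesion molecule of the Dscam family, gave 840, 597 and 541 CPM, so that S1 was above the others. Its member of 1554 bp (3L, 8238637 to 8240190) also reached across a gene end and overlapped CG7213 as well. The remaining genes named by this rule were tnc, Not3, CG5787, Evi5, Idh, CG7611 and d4, with means between 210 ± 8.75 and 552 ± 34.7 CPM (SD, n = 3). All 10 held exactly 1 member, and ATAC peaks, from 1 to 13 in number, lay elsewhere in each of them.

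**Figure D5:**
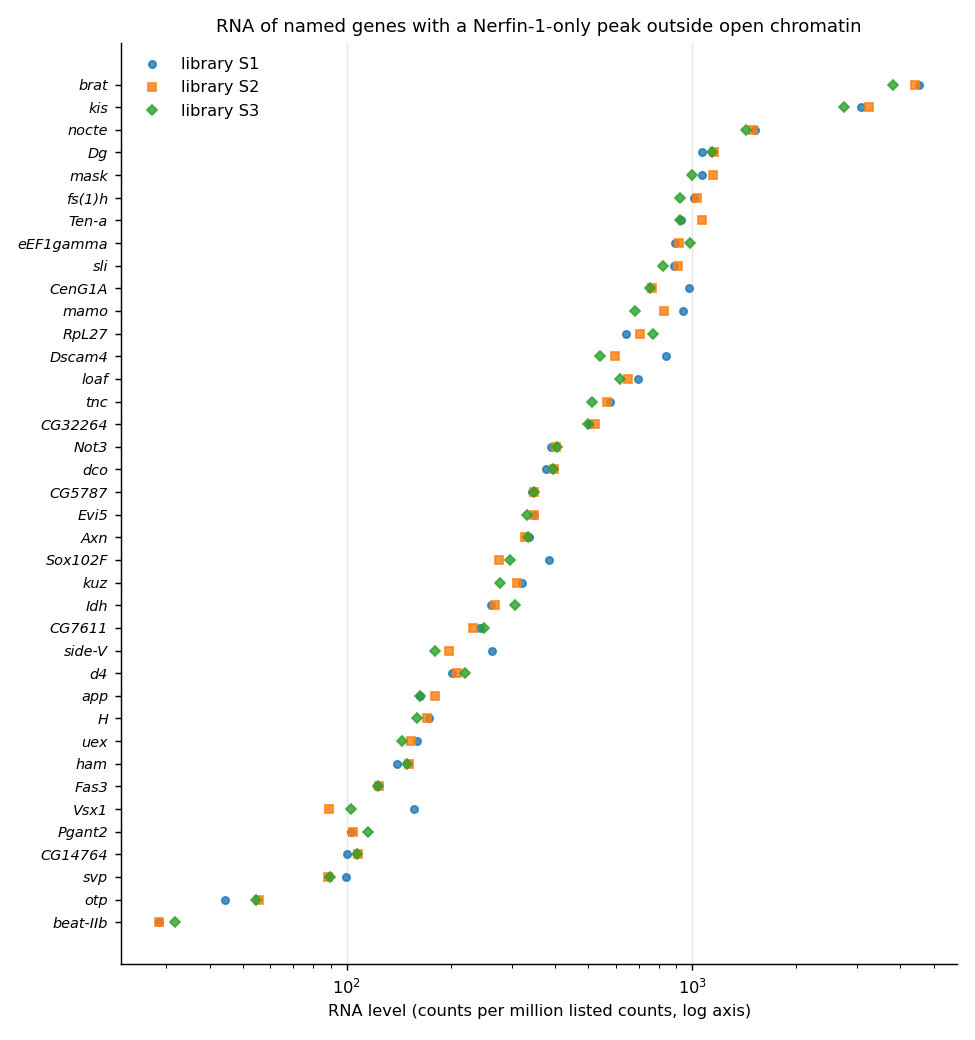
RNA level of the named genes with a member that are in the RNA table, in CPM on a log axis, with 1 point for each of the 3 libraries. The points of a gene lie close together, with Vsx1 (156, 88.6 and 103 CPM) the widest apart.

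Over the 167 listed genes with a member the coefficient of variation between libraries had a median of 5.23%, beside 5.93% over the whole RNA table. The widest was Vsx1, at 30.4%, with S1 at 156 CPM above S2 at 88.6 and S3 at 103. The median level of the 167 genes was 6.91 on the log2(CPM + 1) scale (SD over libraries 0.041). Over all 4938 listed protein-coding genes it was 6.39 (SD 0.06). Genes with a member, listed or not, had a median span of 5169 bp, against 2163 bp for all protein-coding genes. CPM carries no correction for length, so nothing is read from the difference in level.

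Lists of genes were then counted for members, beside the background of 3.47% of all protein-coding genes and 7.04% of those of 5000 bp or more. Over all 27 lists together, 49 of 1065 genes (4.60%) had a member, and 341 (32.0%) had any Nerfin-1 peak, beside 32.9% of all genes. Many list genes are long, and no list was tested. The lists with the highest shares of members also often had a Nerfin-1 peak of any class. This held for 25 of 44 medulla temporal and neuron identity factors, 10 of 14 neuroblast and progenitor factors and 31 of 45 axon guidance and adhesion genes. It also held for 22 of 25 Notch, 17 of 19 Hippo, 11 of 13 ecdysone and 9 of 22 Beat and Side genes. The counts of any class include the members themselves, and beat-Ib, beat-IIb and side-V had no Nerfin-1 peak of another class. Whether a high share below is particular to members therefore cannot be told from these counts.

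Transcription factors of medulla temporal patterning and neuron identity had members at 7 of 44 genes (15.9%), of which 5 were listed. Besides Vsx1 they were the nuclear receptor gene svp, the homeodomain genes otp, Dr and vnd, the zinc-finger gene mamo and the Sox gene Sox102F. At otp (44.2, 55.7 and 54.7 CPM) and Dr (not listed) the member was the only DamID peak; that at otp overlapped Cib2 and lay 316 bp outside otp. At Vsx1, vnd and Sox102F each gene also had a Sd-only peak outside open chromatin, and svp had 5 shared Sd peaks. Sox102F, on chromosome 4, stood at 384, 275 and 297 CPM. Neuroblast and progenitor factors had members at 2 of 14, brat and ham, the latter a PR-domain zinc-finger factor of intermediate progenitors at 140, 151 and 149 CPM. Hox and early patterning factors had them at 3 of 33, the Hox genes pb and Ubx and the gap gene kni, and 0 of the 33 genes were listed. The member at pb overlapped zen2 and lay 729 bp outside pb, and that at kni 783 bp outside, while that in Ubx lay inside the gene.

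The Notch pathway had members at 3 of 25 genes: H, the corepressor of Su(H) (173, 171 and 160 CPM), Psn, the catalytic subunit of gamma-secretase, and kuz, the protease that cleaves Notch (321, 311 and 277 CPM). At H and Psn the member was the only DamID peak. In the annotation used here Psn carries an identifier newer than any in the deposited data. Older identifiers without a symbol were not traced, so whether Psn was listed is not known here. Hippo pathway components and Sd cofactors had them at 2 of 19, the kinase gene dco (377, 397 and 394 CPM) and app, a palmitoyltransferase of Fat signalling (163, 180 and 163 CPM). The bait genes sd and nerfin-1 had none. Other signalling genes had them at 3 of 48, the ETS factor gene pnt, the Wnt pathway scaffold gene Axn and the ligand gene Wnt2. Ecdysone response genes had them at 2 of 13, the nuclear receptors Hr3 and ftz-f1, neither listed.

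Axon guidance and adhesion genes had members at 5 of 45, namely sli, Dscam4, Ten-a, Fas3 and kirre, of which all but kirre were listed. Fas3 stood at 122, 124 and 123 CPM. Beat and Side receptor genes had them at 3 of 22, beat-Ib, beat-IIb (28.6, 28.5 and 31.8 CPM) and side-V (263, 197 and 180 CPM). Neurotransmitter receptors had them at 3 of 41, nAChRalpha3, Dop2R and Octbeta2R, and neuropeptides and their receptors at 3 of 55, Dh31, sNPF and AstA-R1. None of these 6 was listed, and at nAChRalpha3, Octbeta2R, Dh31 and sNPF the member was the only DamID peak. The member inside Dh31, a diuretic hormone gene, was 2170 bp long (2L, 8492975 to 8495144) and lay 19313 bp from the nearest Sd peak. It also overlapped Bace, and the member at sNPF lay 94 bp outside that gene. Neurotransmitter synthesis and loading genes had 1 of 15, the transporter gene prt, and ion channels 1 of 32, rpk. Pan-neuronal and synaptic genes had 0 of 18, although 10 of the 18 had a Nerfin-1 peak of another class, and Dpr and DIP recognition genes had 0 of 32.

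Cell cycle and growth genes had members at 0 of 24, cytoplasmic ribosomal protein genes of the list at 0 of 13, and chromatin and Polycomb group genes at 0 of 28, of which 19 had a Nerfin-1 peak of another class. RpL27, kis and fs(1)h, described above with their members, were not on these lists, and beside a background of 3.47% nothing is read from these counts of 0. Of genes of other tissues, muscle genes had members at 2 of 22 (rols and Msp300), glial genes at 1 of 15 (pnt), and hemocyte and testis genes at 0 of 13 and 0 of 15. Cuticle protein genes had 4 of 141 (Cpr49Ae, Cpr49Af, Cpr50Cb and Cpr57A), where 1 member served both Cpr49 genes. Cytochrome P450 genes had 3 of 85 (Cyp313a1, Cyp6a19 and Cyp6a9), where 1 member served both Cyp6 genes and that at Cyp313a1 lay inside Pde6, and Osiris genes had 1 of 23 (Osi17). Odorant, gustatory and ionotropic receptor genes had 1 of 179 (Gr68a, whose member lies in loaf), and trypsin and serpin genes 0 of 58. None of the genes of these groups with a member was listed. Several of these shares lie near the background of 3.47%.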

How the data were processed

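The authors deposited DamID and ATAC peak lists as coordinates with no score, and raw read counts per gene for RNA, per the file headers. The submitters' processing notes name dm6 as build and, as tools, Bowtie2, MACS2, bedtools, Subread, featureCounts and edgeR, without their roles, thresholds or how the Dam-only samples entered. Rows that repeat a peak for several genes were merged (4527 rows for Nerfin-1). Overlap meant at least 1 bp. Gene positions were those of 13922 protein-coding genes of the RefSeq Release 6 table, without strand. Of 8165 gene identifiers, 7998 matched a symbol, and 298 protein-coding genes with newer or no identifiers count as not listed. No column was left unmapped (0 columns), but the RNA columns could not be tied to replicate numbers. Shares carry 95% Wilson intervals and differences Newcombe intervals, which cover counting error only. Fisher's exact test (SciPy 1.17.1) used Benjamini-Hochberg adjustment over 6 tests with a threshold of 0.05. edgeR 4.0.16 gave only TMM factors for an alternative, since 1 RNA group allows no differential test. For DamID and ATAC the depth is unknown. Interval code was tested on simulated data. The planned comparison of gene starts needed strand and was not run. Sequences and motifs were not analysed here. Members and lists were chosen with earlier results of these data known.

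Named genes were those at the 12 longest members, genes with at least 2 members, up to 8 genes with a member per list, the 12 with the highest CPM, the 10 of highest CPM with members alone, 3 peaks at each edge of the rule (of which 1 each is given), and sd and nerfin-1.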

Additional observations from a re-analysis of the deposited data

How the results depend on the processing

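The share of members at a listed gene was below that of the other classes under all 12 alternatives for each class. The difference from Nerfin-1-only peaks in open chromatin ranged from -27.8 to -15.4 percentage points and passed in all 12 (Fisher's exact test, adjusted p = 5.74e-15 to 1.03e-04). Since open chromatin of the sorted cells separates these classes, that outcome is not independent of the rule. One alternative widened Sd and ATAC peaks by 500 bp, or Nerfin-1 and ATAC peaks for the Sd-only class. There the differences from shared Nerfin-1 and Sd-only peaks outside open chromatin were -8.19 and -3.96 points and no longer passed. In the other 11 alternatives these differences passed. The cause was not tested. The difference in the X share changed sign against Nerfin-1-only peaks in open chromatin (-0.771 with at least 50% overlap, -1.75 with the longer 50% of each class), shared Nerfin-1 peaks (-1.58 and -3.19 in the same settings) and Sd-only peaks (0.0834 with widened peaks). With the longer 50% it passed against Sd-only peaks (-8.24 points, Fisher's exact test, adjusted p = 0.033, range over alternatives 0.033 to 1). An overlap of at least 50% gave 787 members with a median of 1059 bp, and the longer 50% gave 204 with 1141 bp, by construction. A flank of 5 kb put members at 86 list genes in place of 49. The median RNA level, 6.91 on the log2 scale, was 7.17 with no flank and 6.57 with 5 kb, and 6.92 to 6.95 with 1 library left out. Peaks within 1 kb of a gene, peaks of 500 to 1500 bp, leaving out chromosomes M, Y and 4, and the gene groups with other flanks were added after seeing the data. No paired analysis was possible because the peak lists hold no value per replicate and the RNA is 1 group. Alternatives for gene starts were not run.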
